A study of Mus musculus with 2 samples.

Results

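The 10 genes described here encode cell adhesion molecules at the contacts between axons, neuronal cell bodies and glia of the dorsal root ganglion (DRG): Ncam1, Ncam2, L1cam, Chl1, Nrcam, Cadm1, Cadm2, Cadm3, Cntn1 and Cdh20. They were chosen by symbol from the 32285 genes listed in single cell RNA sequencing of mouse L4 and L5 DRGs, and each symbol matched 1 gene. All 10 passed the filter of at least 10 unique molecular identifiers (UMIs, counted transcript molecules) in at least 2 of 16 summed profiles, as did 18160 genes in all.

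In sensory ganglia, satellite glial cells (SGCs) wrap the cell bodies of neurons, myelinating Schwann cells build myelin around single large axons, and non-myelinating Schwann cells hold several small axons in separate troughs. Adhesion molecules of the immunoglobulin superfamily and cadherins sit on both faces of these contacts and bind either the same molecule or a partner on the opposite cell. NCAM1 and NCAM2 bind mainly themselves, the L1 family (L1CAM, CHL1 and NRCAM) links the membrane to ankyrins and the cytoskeleton, CADM proteins (nectin-like molecules) join axons to Schwann cells along the internode, contactin-1 is a lipid-anchored partner of the L1 family and of the paranodal junction, and cadherin-20 is a classical type II cadherin.

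The samples were 2 single cell libraries, replicates 1 and 2, each from L4 and L5 DRGs of naive wild-type female C57BL/6 mice at 3 months of age. The ganglia were dissociated with papain and collagenase, live cells were sorted, and 3′ transcript libraries were made with droplets. The study calls the samples biological replicates, and the number of mice pooled into each is not given in the sources used here. There was no treatment or second genotype, so the comparisons below are between cell types of the same 2 samples.

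The samples held 119101743 and 128668771 UMIs, with 8814 and 8772 barcodes called as cells with more than 300 genes. After removal of low quality and doublet clusters 16226 cells were kept, of which 15588 lay in clusters named from markers and 638 in 1 unnamed cluster. Non-myelinating Schwann cells were named with Scn7a, a sodium channel gene, and not with L1cam, and no member was used for clustering. The named cells of replicates 1 and 2 were 4097 and 3913 SGCs, 1625 and 1687 myelinating and 557 and 643 non-myelinating Schwann cells, 55 and 53 neurons, 185 and 229 endothelial cells, 533 and 762 fibroblasts, 398 and 337 mural cells, and 269 and 245 macrophages. All 15 genes of the study's marker pairs were highest in their own type in both samples. The naming required these genes to be raised, so this is no independent check of the types. Neurons were few and deep, with medians of 110283 and 92324 UMIs per cell and 53 and 49 cells above 20000 UMIs. The files share 134 cell barcodes between the samples. Of the 108 kept neurons, 59 carried a barcode that was also called in the other sample, mostly as a shallow cell with under 1000 genes. Levels of the members in neurons are therefore given with and without these neurons.

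Levels below are CPM, the UMIs of the summed cells of a type set to a total of 1000000, scaled between profiles by TMM (a correction for unequal RNA composition), and are compared between cell types and not between genes, because transcripts were counted at their 3′ ends without correction for length. A level is thus a share of the UMIs of a type and not an amount per cell. An SD over 2 samples rests on 2 values.

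Different expression patterns are visible in the plot of levels by cell type and sample. Ncam1, Ncam2, Cntn1 and Cdh20 were highest in SGCs, Chl1, Cadm1 and Cadm2 in non-myelinating Schwann cells, and Nrcam and Cadm3 in myelinating Schwann cells, while L1cam was about equally high in non-myelinating Schwann cells and neurons. No member had its highest level in endothelial cells, fibroblasts, mural cells or macrophages.

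**Figure D1:**
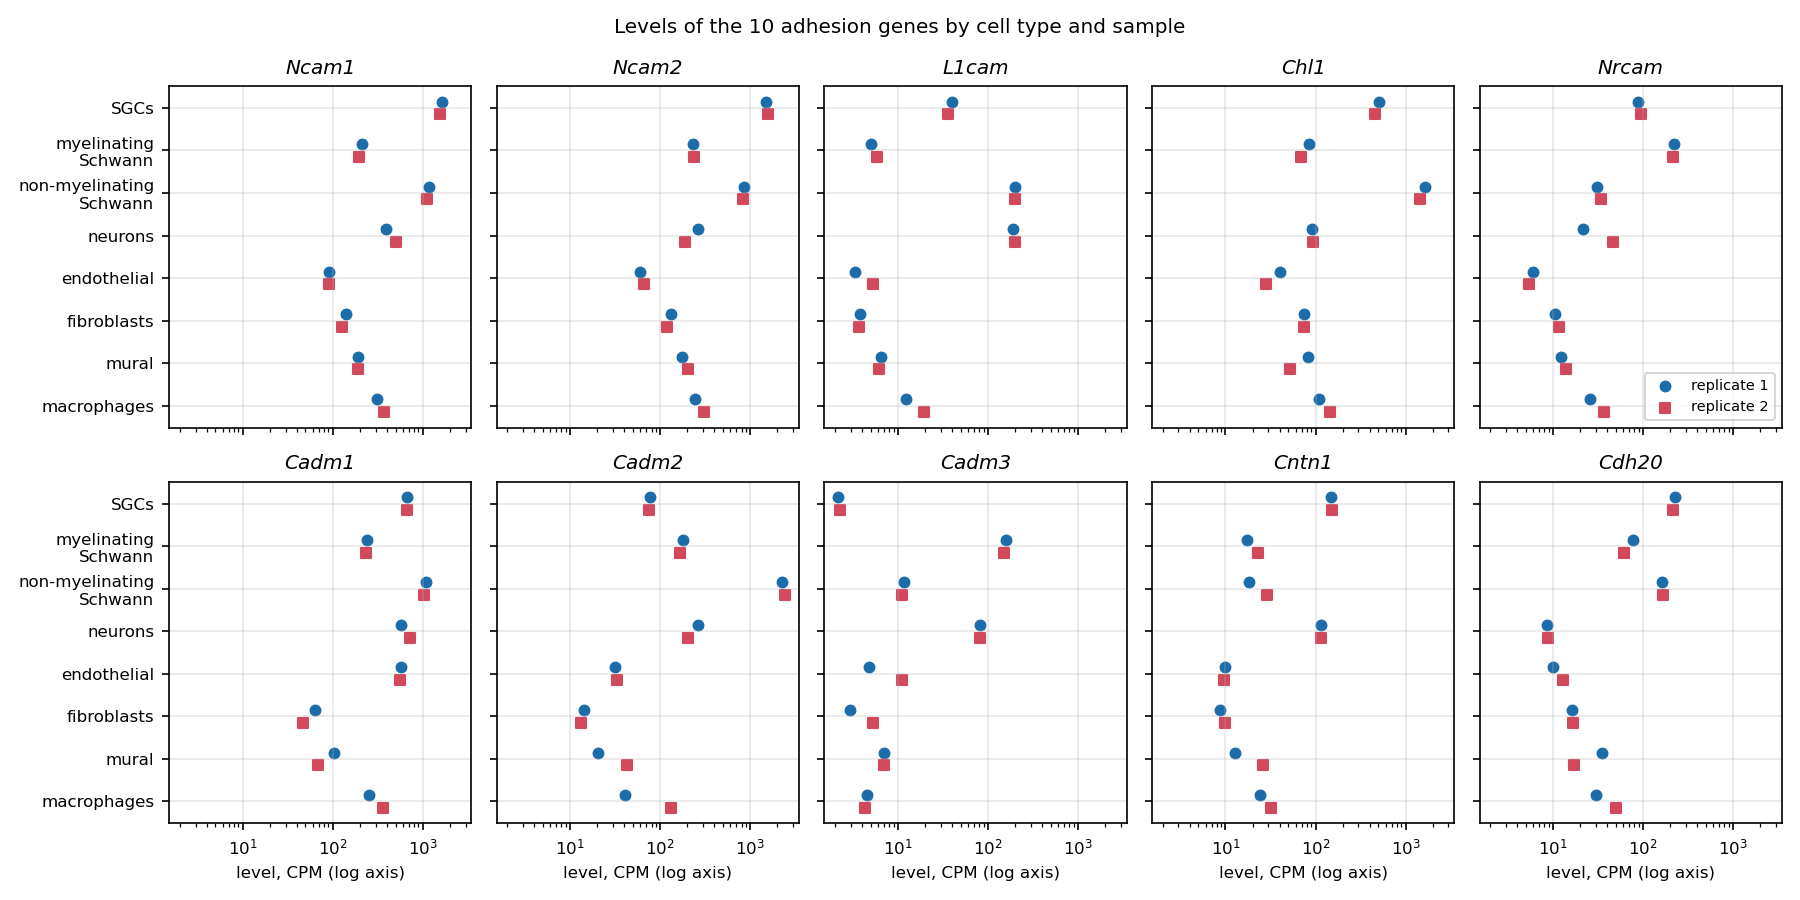
Level of each gene (x axis, CPM on a log axis) in the 8 named cell types (y axis), with a circle for replicate 1 and a square for replicate 2. In the order of types within a gene the samples of 19 of 70 pairs of neighbours overlap, whereas distant types lie far apart, for example 2.17 and 2.30 CPM of Cadm3 in SGCs against 159 and 150 CPM in myelinating Schwann cells.

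Ncam1 encodes the founding neural cell adhesion molecule, which lies on mouse chromosome 9 (chr9:49502136-49798925, minus strand, mm10 with GENCODE M21). Its level was 1630 and 1558 CPM in SGCs of replicates 1 and 2, 1173 and 1133 CPM in non-myelinating Schwann cells, 393 and 507 CPM in neurons, and 210 and 195 CPM in myelinating Schwann cells. SGCs were thus at the top of a wide range among glia, and for Ncam1 no 2 neighbours in the order of the 8 types overlapped between samples. Outside neurons and glia, macrophages stood highest at 311 and 373 CPM and endothelial cells lowest at 91.9 and 90.1 CPM. Without neurons whose barcode was called in both samples, Ncam1 in neurons was 356 and 524 CPM.

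Ncam2, a paralogue on chromosome 16 (chr16:81200697-81626828, plus strand), followed the same order among glia. It reached 1487 and 1555 CPM in SGCs, 856 and 828 CPM in non-myelinating Schwann cells, 234 and 239 CPM in myelinating Schwann cells and 262 and 187 CPM in neurons. Neurons overlapped with both myelinating Schwann cells and mural cells (172 and 203 CPM), and these overlaps depended on the cells used. Without neurons of shared barcodes Ncam2 in neurons was 355 and 428 CPM, above myelinating Schwann cells with 237 and 241 CPM and mural cells with 174 and 205 CPM. Without called doublets mural cells held 32.3 and 18.0 CPM, below neurons with 259.8 and 189 CPM. Myelinating Schwann cells, with 229 and 233 CPM, still overlapped with neurons in that setting.

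L1cam, on chromosome X (chrX:73853778-73896105, minus strand), encodes the L1 adhesion molecule, known on unmyelinated axons and on the Schwann cells that hold them. Its level was 202 and 201 CPM in non-myelinating Schwann cells and 192 and 201 CPM in neurons, which overlapped. SGCs stood lower at 39.6 and 35.6 CPM, and myelinating Schwann cells held only 50 and 63 UMIs of it in all, or 5.05 and 5.87 CPM. Without the neurons of shared barcodes the neuronal level was 148 and 165 CPM, below both non-myelinating values.

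Chl1, the close homologue of L1 (chr6:103510586-103750211, plus strand), differed from L1cam on the neuronal side. Non-myelinating Schwann cells held 1665 and 1437 CPM, SGCs 512 and 462 CPM, macrophages 110 and 144 CPM, neurons 91.6 and 93.5 CPM, and myelinating Schwann cells 85.3 and 68.8 CPM. Non-myelinating Schwann cells were thus 3.19 times as high as SGCs, and neurons were at 19.0% of the SGC level. The neurons without shared barcodes held 102 and 109 CPM.

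Nrcam, whose product neurons and Schwann cells place at nodes of Ranvier (chr12:44328885-44601964, plus strand), was the L1 family gene with the opposite glial order. Myelinating Schwann cells held 222 and 216 CPM, SGCs 87.0 and 94.5 CPM, and non-myelinating Schwann cells 30.8 and 33.7 CPM. Neurons, at 21.7 and 46.3 CPM, overlapped with non-myelinating Schwann cells, and their 2 samples differed more than those of any glial type for this gene.

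Cadm1 (chr9:47530173-47857637, plus strand) encodes a nectin-like molecule that binds itself and other CADM proteins. Its level was 1095 and 1046 CPM in non-myelinating Schwann cells, 675 and 662 CPM in SGCs, 578 and 721 CPM in neurons and 242 and 232 CPM in myelinating Schwann cells, with SGCs and neurons overlapping. Endothelial cells held 571 and 556 CPM, or 84.3% of the SGC level.

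Cadm2 (chr16:66655421-67620908, minus strand) had the largest ratio between the leading type and the next. Non-myelinating Schwann cells held 2236 and 2453 CPM, neurons 261 and 202 CPM, myelinating Schwann cells 177 and 165 CPM and SGCs 76.9 and 74.2 CPM. The level in non-myelinating Schwann cells was 10.1 times that in neurons. The macrophage samples, at 40.7 and 130 CPM, lay on either side of the SGC values.

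Cadm3 encodes nectin-like molecule 1, known from the axonal side of the internode (chr1:173333258-173367695, minus strand). Myelinating Schwann cells held the highest level, 159 and 150 CPM, above neurons with 81.1 and 82.6 CPM. Non-myelinating Schwann cells held 11.7 and 11.2 CPM and SGCs 2.17 and 2.30 CPM, the lowest of the 8 types. Without neurons of shared barcodes the neuronal level was 63.8 and 60.02 CPM.

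Cntn1, the gene of contactin-1 (chr15:92051165-92341967, plus strand), was high in SGCs with 147 and 152 CPM and in neurons with 115 and 114 CPM. All other types lay between 8.75 and 32.1 CPM, and 4 of the 7 pairs of neighbours in the order overlapped. Neurons without shared barcodes held 158 and 174 CPM, above both SGC values, so the order of these types depends on those cells.

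Cdh20, the type II cadherin (chr1:104768529-104995481, plus strand), was 226 and 216 CPM in SGCs, 162 and 164 CPM in non-myelinating Schwann cells and 77.3 and 61.1 CPM in myelinating Schwann cells. Neurons held 51 UMIs in each sample, or 8.49 and 8.81 CPM, below the other 7 types when all cells were used. That place in the order depends on the cells. Without called doublets the mean was 8.67 CPM in neurons, above endothelial cells with 3.03 CPM, mural cells with 3.96 CPM and fibroblasts with 6.54 CPM. Without shared barcodes neurons held 9.81 and 17.2 CPM, which overlapped with 10.05 and 13.2 CPM in endothelial cells.

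The SGC transcript Fabp7 stood in neurons at 5.25% of its SGC level and Kcnj10, the glial potassium channel, at 4.62%, and the 7 SGC markers together at 6.06%, between 695 and 944 CPM. Cdh20 in neurons, at 3.92% of its SGC level with all neurons, was below that share, whereas Ncam2, Chl1, Ncam1 and Cntn1 were at 14.8%, 19.0%, 28.2% and 76.7%. The part of SGC RNA in the neuronal values was not tested.

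Several members share their locus with other annotated genes. Arhgap4 overlaps L1cam and Ackr1 overlaps Cadm3 on the same strand, with 777 and 841 UMIs over the named types. The antisense gene Gm11149 overlaps Ncam1 and had 2096 UMIs, against 4304 UMIs of Ncam1 in the non-myelinating Schwann cells of replicate 1 alone.

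Chl1 and Cadm2, both highest in non-myelinating Schwann cells, and Cadm3, with the opposite order of the Schwann cell types, are shown with their promoters, from 250 bases before to 50 after the start of a RefSeq transcript (GRCm38.p6). Capitals mark the letters ACAAAG, the core bound by SOX transcription factors, searched on both strands. The windows are Chl1 at chr6:103510626-103510925 (plus strand), Cadm2 at chr16:67620859-67621158 (minus strand) and Cadm3 at chr1:173367646-173367945 (minus strand).
Chl1: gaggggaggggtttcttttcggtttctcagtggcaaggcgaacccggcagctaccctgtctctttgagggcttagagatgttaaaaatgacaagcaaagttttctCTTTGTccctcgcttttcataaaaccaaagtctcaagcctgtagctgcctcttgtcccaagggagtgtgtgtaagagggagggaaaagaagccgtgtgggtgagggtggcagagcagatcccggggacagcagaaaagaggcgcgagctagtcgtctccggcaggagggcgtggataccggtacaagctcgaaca
Cadm2: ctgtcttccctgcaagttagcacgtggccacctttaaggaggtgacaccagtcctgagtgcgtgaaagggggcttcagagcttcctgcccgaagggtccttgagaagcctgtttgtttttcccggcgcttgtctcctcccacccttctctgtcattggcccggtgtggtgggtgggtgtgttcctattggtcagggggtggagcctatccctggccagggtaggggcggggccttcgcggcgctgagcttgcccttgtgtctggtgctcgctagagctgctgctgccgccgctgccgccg
Cadm3: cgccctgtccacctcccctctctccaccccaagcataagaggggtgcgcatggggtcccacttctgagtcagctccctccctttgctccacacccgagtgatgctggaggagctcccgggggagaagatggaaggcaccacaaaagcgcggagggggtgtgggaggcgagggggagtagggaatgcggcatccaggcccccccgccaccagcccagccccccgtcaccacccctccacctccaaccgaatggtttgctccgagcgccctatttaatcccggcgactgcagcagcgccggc
The motif occurred once in the Chl1 window, from 145 bases before the start, and not in those of Cadm2 and Cadm3. Nor did the motif occur in the windows of the other members found, among them L1cam and Cdh20, with the Schwann cell order of Chl1. It was in 18.7% of all 32851 promoter windows of this length, so a match is a common description of sequence and not a binding site. The Chl1, Cadm2 and Cadm3 windows held 13, 15 and 17 CG pairs against a median of 7 over all windows. Of the 10 genes, 8 matched the table, and the others were Ncam1 and Cadm1.

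Between non-myelinating and myelinating Schwann cells, the 2 types that ensheathe axons, most members differed, and most were higher where no myelin is made. L1cam was 36.8-fold higher in non-myelinating Schwann cells, Chl1 20.1-fold and Cadm2 13.7-fold. With the RNA of empty droplets subtracted the L1cam difference was 56.02-fold. Nrcam was 6.77-fold and Cadm3 13.5-fold higher in myelinating Schwann cells. In edgeR's quasi-likelihood test with Benjamini-Hochberg adjustment over 18160 genes, 7 of 10 members were called higher and 2 lower in non-myelinating Schwann cells, against 17.2% of all genes called higher and 17.5% called lower. The median log2 fold change was 2.00 over the members and -0.02 over all genes.

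Among the members higher in non-myelinating Schwann cells, L1cam had a log2 fold change of 5.20 ± 0.15 (SE, adjusted p = 1.36e-12) and Chl1 of 4.33 ± 0.19 (adjusted p = 3.57e-11). Cadm2 followed with 3.77 ± 0.33, Ncam1 with 2.51 ± 0.12, Cadm1 with 2.18 ± 0.18, Ncam2 with 1.83 ± 0.14 and Cdh20 with 1.24 ± 0.19 (adjusted p = 5.74e-05 for Cdh20). The members higher in myelinating Schwann cells were Cadm3, with -3.76 ± 0.18 (adjusted p = 6.50e-11), and Nrcam, with -2.76 ± 0.22 (adjusted p = 2.53e-08). Each of these 9 genes had samples that did not overlap between the types. The share of all genes with such samples was not counted, so this adds nothing to the calls. Cntn1 was not called, with 17.5 and 23.0 CPM in myelinating against 18.3 and 29.2 CPM in non-myelinating Schwann cells and a log2 fold change of 0.25 ± 0.23 (95% interval on 8 residual degrees of freedom -0.28 to 0.78, adjusted p = 0.459). With log-normalization for clustering Cntn1 was called higher in non-myelinating Schwann cells, with a log2 fold change of 1.55 and adjusted p = 2.53e-06.

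**Figure D2:**
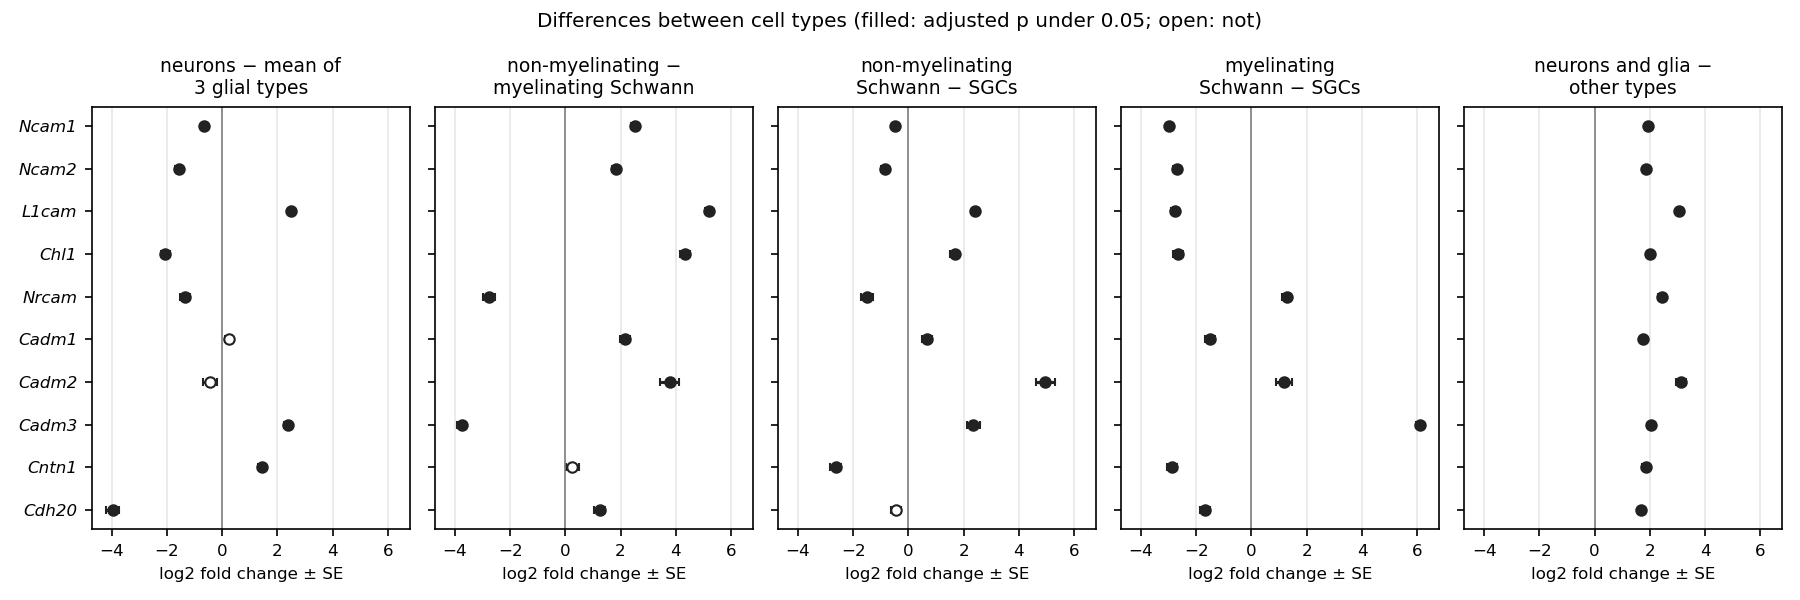
Log2 fold change of the 10 genes (x axis, with SE bars) in 5 comparisons of cell types, one in each panel, with values right of the line higher in the type named first. Filled circles have an adjusted p under 0.05, and the only open circles are Cadm1 and Cadm2 in neurons against glia, Cntn1 between the Schwann cell types and Cdh20 between non-myelinating Schwann cells and SGCs.

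The non-myelinating Schwann cells were next compared with SGCs, the other glia that make no myelin. Cadm2 was 31.0-fold, L1cam 5.36-fold, Cadm3 5.09-fold and Chl1 3.19-fold higher in the Schwann cells, and Cadm1 was 1.60-fold higher. Cntn1 was 6.19-fold and Nrcam 2.80-fold higher in SGCs, and the NCAM genes differed less, 1.81-fold for Ncam2 and 1.38-fold for Ncam1. By the same test 5 members were called higher and 4 lower in non-myelinating Schwann cells, against 13.5% and 16.6% of all genes, and the median log2 fold change was 0.12 over the members and -0.04 over all genes. The 7 SGC markers summed to 3264 and 3396 CPM in non-myelinating Schwann cells, or 24.6% of their SGC level, and their part in these differences was not tested. Markers of myelinating Schwann cells summed to 971 and 951 CPM there, or 8.24% of their own level, and the part of such RNA in the Cadm3 value was not tested.

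The log2 fold change was 4.96 ± 0.35 for Cadm2 (adjusted p = 1.25e-08), 2.42 ± 0.11 for L1cam (adjusted p = 1.31e-10) and -2.63 ± 0.20 for Cntn1 (adjusted p = 3.43e-08). Cdh20 was lower by 0.44 ± 0.18 and not called (adjusted p = 0.0790), but with the sample number as a block it was called lower (adjusted p = 0.0458), which made 5 lower members, as it was without called doublets (adjusted p = 0.0379) and with no filter on low counts (adjusted p = 0.0495). This comparison lost calls when only as many cells were drawn from each type as there were neurons, leaving 3 members higher and 2 lower. The calls lost were those of Ncam1, Nrcam, Cadm1 and Cadm3, and Ncam1 also lost its call without TMM (log2 fold change -0.25, adjusted p = 0.122).

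Against SGCs, myelinating Schwann cells were lower in most members. Ncam1 was 7.88-fold, Cntn1 7.36-fold, L1cam 6.87-fold, Ncam2 6.43-fold and Chl1 6.32-fold lower, and Cdh20 and Cadm1 were 3.20-fold and 2.82-fold lower. Cadm3 was 68.8-fold higher in myelinating Schwann cells, from 123 and 133 UMIs in all SGCs to 1572 and 1613 UMIs in the fewer myelinating cells. It was 107-fold with the RNA of empty droplets subtracted, which left 1.54 and 1.43 CPM in SGCs. Nrcam and Cadm2 were 2.41-fold and 2.27-fold higher. All 10 members were called, 3 higher and 7 lower, against 23.5% and 25.0% of all genes. With log2 fold changes of 6.10 ± 0.16 for Cadm3 (adjusted p = 6.23e-14) and -2.98 ± 0.12 for Ncam1 (adjusted p = 5.83e-12), the ends of the range lay far outside the spread between samples. The median log2 fold change was -2.17 over the members and 0.01 over all genes. The call of Cadm2 was lost with equal numbers of cells (adjusted p = 0.472). The 3 comparisons among glia share their profiles, so their values are not independent of each other.

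Neurons were compared with the equally weighted mean of the 3 glial types to ask which members take a larger share of the UMIs in neurons. Such a share is not an amount per cell or per contact. The median neuron held 110283 and 92324 UMIs, against 5199 to 14771 UMIs in the median cell of a glial type. Amounts per cell were not compared. L1cam was 5.67-fold, Cadm3 5.17-fold and Cntn1 2.74-fold higher in neurons. Cdh20 was 15.7-fold, Chl1 4.18-fold, Ncam2 2.99-fold, Nrcam 2.55-fold and Ncam1 1.60-fold higher in glia. That was 3 members higher and 5 lower, against 35.3% and 31.9% of all genes that were called, so most genes differed between these cells. The median log2 fold change was -0.55 over the members and -0.02 over all genes. The 12 neuronal markers summed to at most 0.995% of their neuronal level in a glial type.

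The log2 fold change was 2.50 ± 0.09 for L1cam (adjusted p = 2.09e-13), 2.37 ± 0.12 for Cadm3 (adjusted p = 1.46e-11) and -3.97 ± 0.23 for Cdh20 (adjusted p = 1.07e-10). Cadm1 and Cadm2 were not called, with 0.23 ± 0.14 (95% interval -0.09 to 0.55, adjusted p = 0.151) and -0.43 ± 0.25 (95% interval -1.01 to 0.15, adjusted p = 0.145). Because the mean weights 3 glial types that themselves differ, a member can be higher in neurons than in the mean and lower than in 1 type, as Cadm3 was against myelinating Schwann cells.

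The neuronal values rest on 108 cells, and removing those with shared barcodes (33 of 55 and 26 of 53) moved some of them. Cadm1 was then called higher in neurons with a log2 fold change of 0.60 ± 0.17 (adjusted p = 0.00820), as it was with log-normalization for clustering (0.32 ± 0.13, adjusted p = 0.0439), and Cadm2 turned to 0.06 ± 0.26 (adjusted p = 0.907). Ncam2, Nrcam and Cdh20 kept their calls with smaller differences, 1.73-fold for Ncam2 (adjusted p = 1.41e-05), 1.60-fold for Nrcam (adjusted p = 0.0225) and 10.005-fold for Cdh20 (adjusted p = 4.53e-08). The differences of L1cam, Cadm3 and Chl1 were also smaller, at 4.49-fold, 3.87-fold and 3.70-fold. Those of Cntn1 and Ncam1 were larger, at 3.94-fold and 1.65-fold. The neuronal levels without these cells were 626 and 1062 CPM for Cadm1, 364 and 292 CPM for Cadm2 and 26.6 and 80.5 CPM for Nrcam. Nrcam had a log2 fold change of -1.958 without replicate 2 and of -0.929 without replicate 1, in fits with 1 profile per type and hence no test. Its SE with both samples, 0.19, rests on a spread shared by all types. The SD of its level was 17.4 CPM in neurons and 4.72 CPM in myelinating Schwann cells.

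Single neurons differed widely for some members and little for others, as the plot of single neurons shows. L1cam was at 0 in 1 of 55 and 0 of 53 neurons, with quartiles of 131 and 239 CPM of a cell's own UMIs in replicate 1 and of 156 and 234 in replicate 2. Cadm1 was detected in every neuron, with medians of 533 and 579 CPM. Ncam2 had medians of 84.6 and 101 CPM but reached 2720 and 2068 in the highest neurons of the 2 samples. Cntn1 was at 0 in 13 and 10 neurons and had an upper quartile of 189 and 246. Cdh20 was at 0 in 37 of 55 and 40 of 53 neurons. These values cover all 108 neurons. Over the 22 and 27 neurons without shared barcodes the medians were 624 and 844 CPM for Cadm1, 139.5 and 102 CPM for Ncam2 and 152 and 199.7 CPM for L1cam, and Cdh20 was at 0 in 15 and 22 neurons.

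**Figure D3:**
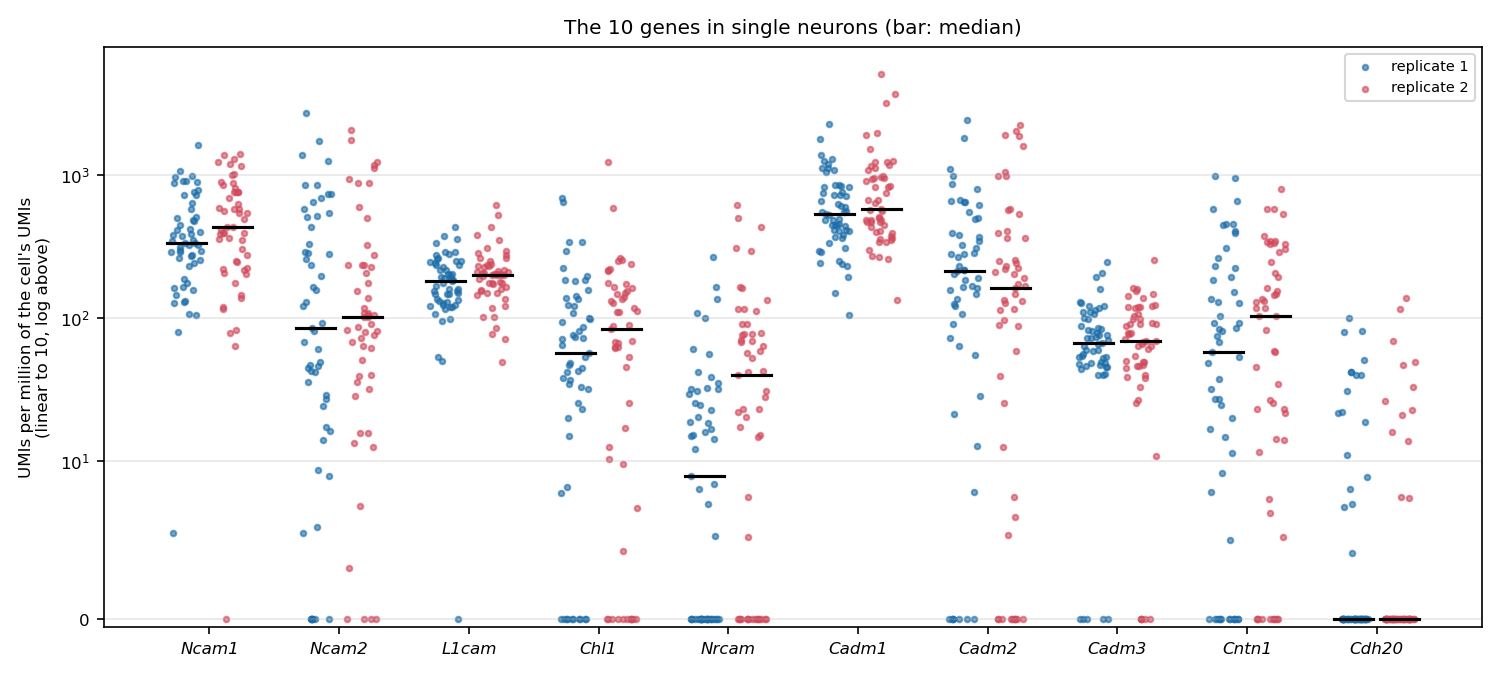
Each point is 1 of all 108 neurons, with CPM of its own UMIs on the y axis (linear to 10, logarithmic above) for the 10 genes on the x axis, blue for replicate 1 and red for replicate 2, and a bar at the median. L1cam and Cadm3 form compact clouds around 182 and 200 and around 67.2 and 68.6, Ncam2, Cadm2 and Cntn1 spread from 0 to at least 795, and most neurons lie at 0 for Cdh20.

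When each cell was thinned to 1000 UMIs, so that depth was equal, the type with the highest share of cells with a UMI was that with the highest level for 8 of the 10 members. The exceptions were L1cam and Cntn1. Cntn1 was found in 14.5% and 15.1% of neurons, or 8 cells in each sample, against 12.3% and 12.6% of SGCs. The exact binomial 95% intervals of the neurons, 6.50 to 26.7% and 6.75 to 27.6%, hold the SGC shares. Chl1 was found in 74.5% (exact binomial 95% interval 70.7 to 78.1%) and 76.0% (72.5 to 79.3%) of non-myelinating Schwann cells, in 35.5% and 32.1% of SGCs and in 6.18% and 5.55% of myelinating Schwann cells. Mural cells, taken as cells that should lack these neural molecules, held it in 2.03% and 2.17%. Cadm2 was found in 72.2% and 74.6% of non-myelinating Schwann cells against 11.7% and 12.002% of myelinating Schwann cells, 5.96% and 6.62% of SGCs and 1.01% and 1.55% of mural cells. Cadm3 was found in 14.7% and 12.4% of myelinating Schwann cells but in 0.220% and 0.307% of SGCs, below the 0.759% and 1.86% of mural cells, so its SGC level is not above that background. The share of non-myelinating Schwann cells with Cadm3, 1.44% and 1.43%, was not above the mural share in both samples either, although the summed level was 5.09-fold that of SGCs.

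L1cam was found in 17.0% and 19.6% of non-myelinating Schwann cells and 23.6% and 22.6% of neurons, with intervals that overlap. In myelinating Schwann cells it was found in 0.494% and 0.483%, or 8 cells in each sample. The mural shares, 0.253% and 0.310%, rest on 1 cell in each sample, and their intervals overlap with those of myelinating Schwann cells. Cdh20 was found in 18.2% and 17.6% of SGCs and 15.7% and 12.2% of non-myelinating Schwann cells. At this depth Nrcam was found in 0 of 55 neurons of replicate 1, with an upper limit of 6.49% by the exact 95% interval, and in 7 of 53 of replicate 2. Without thinning 58.2% and 71.7% of neurons held a UMI of it. Thinning left out at most 29 cells of a type in a sample, and these intervals and limits cover counting error only. Without thinning the shares follow depth, which was 13905 and 14771 UMIs in the median SGC and 5571 and 5826 UMIs in the median non-myelinating Schwann cell. Unthinned, Chl1 was found in 94.5% of SGCs in each sample and in 97.5% of non-myelinating Schwann cells in each.

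SGCs fell into 5 clusters, formed without the members, and these differed for some of them and little for others. On total UMIs without TMM, Ncam1 ranged from 1425 to 1652 CPM over the clusters and Cntn1 from 130 to 146 CPM, or 1.16-fold and 1.12-fold. L1cam ranged 3.09-fold, from 15.9 and 15.3 CPM in the cluster of the deepest cells to 47.2 and 49.4 CPM in the largest cluster. Cdh20 and Chl1 were lowest and highest in the same 2 clusters, with 141 and 148 against 278 and 274 CPM for Cdh20 and 327 and 278 against 546 and 564 CPM for Chl1. The median depth was 19840.5 UMIs in the first of these clusters and 10803 UMIs in the second, and its part in the difference was not tested.

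The 2 clusters of myelinating Schwann cells differed in opposite directions for the members that mark this type. Nrcam was 251 and 233 CPM in the larger cluster and 136 and 153 CPM in the smaller, whereas Cadm3 was 140 and 131 CPM in the larger and 186 and 201 CPM in the smaller. Their median depths were 5886 and 4249 UMIs. Fibroblasts also formed 2 clusters, with Chl1 at 106 and 124 CPM in one and 48.2 and 19.8 CPM in the other. Called doublets were 8.06% of the cells in the cluster with more Chl1 and 4.08% in the other. Their part in the difference was not tested.

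The mean of neurons and glia was higher than the mean of endothelial cells, fibroblasts, mural cells and macrophages for every member. Single types did not all follow these means. With all cells used, SGCs were the lowest of the 8 types for Cadm3 and neurons for Cdh20. Cadm1 was higher in endothelial cells than in myelinating Schwann cells. The difference between the means ranged from 3.23-fold for Cdh20 to 8.79-fold for Cadm2, with L1cam at 8.38-fold and Nrcam at 5.39-fold. All 10 members were called higher and 0 lower by edgeR's quasi-likelihood test, against 29.9% and 29.4% of all genes, and log2 fold changes lay between 1.69 ± 0.13 for Cdh20 (adjusted p = 9.07e-09) and 3.14 ± 0.18 for Cadm2 (adjusted p = 1.71e-10). At an unadjusted p under 0.05 the count of lower members was also 0, and it was 0 by DESeq2. The median log2 fold change was 1.958 over the members and 0.02 over all genes. The call of L1cam was lost with equal numbers of cells (adjusted p = 1.00). Without called doublets the differences were larger, from 4.91-fold for Cadm3 to 15.1-fold for Cadm2, with Cdh20 at 9.97-fold, Nrcam at 14.6-fold and L1cam at 13.8-fold.

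Part of the level outside neurons and glia went with cells called doublets by Scrublet, a caller that compares each cell with simulated mixtures. Mural cells held 7.29% and 8.61% called doublets, endothelial cells 6.49% and 8.73%, fibroblasts 3.94% and 7.74% and macrophages 3.72% and 7.76%, against 0.539% to 1.36% in the 3 glial types and 0% in neurons. Without these cells the level of 9 of 10 members in mural cells was more than 1.5 times lower, with a median of 4.27 times and up to 7.81 times for Nrcam. In fibroblasts this held for 8 members, in endothelial cells for 7 and in macrophages for 1, Ncam2. The SGC transcript Fabp7 moved with them, from 9.58% of its SGC level in mural cells to a value 3.91 times lower. Macrophages held Fabp7 at 20.6% of its SGC level and, without called doublets, at a value 1.47 times lower.

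Cadm1 in endothelial cells did not move, with a ratio of 0.994 between the level with and without called doublets. It was found in 42.1% and 34.6% of endothelial cells thinned to 1000 UMIs, against 3.80% of mural cells in replicate 1. In neurons and the 3 glial types no member moved by more than 1.26 times.

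**Figure D4:**
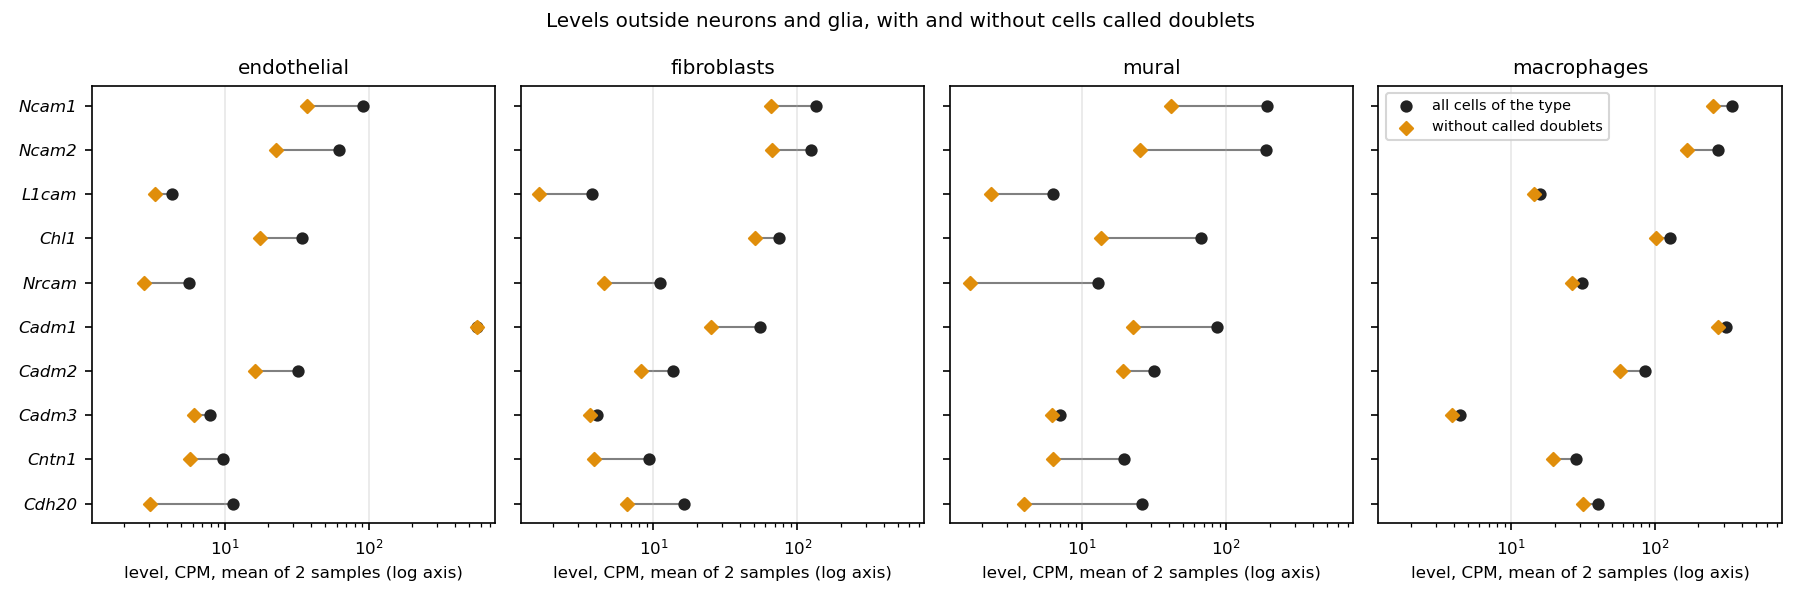
Level of the 10 genes (x axis, CPM, mean of 2 samples, log axis) in the 4 types outside neurons and glia, with black circles for all cells and orange diamonds for cells not called doublets. The lines are longest in mural cells, and Cadm1 in endothelial cells is the point where both symbols coincide.

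The RNA of empty droplets held every member, from 30.4 CPM of Cadm3 to 670 CPM of Ncam1 as the mean of both samples. At most 3.93% of the UMIs of a profile could come from it, by the type markers that each profile should lack. Subtraction changed no call or direction in the 5 comparisons, and each member kept its highest type.

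The members differed from one another in how their levels were spread over the 16 profiles (8 types in the same 2 samples). Ncam1 and Ncam2 had the most similar profiles, with Pearson r = 0.959 of log2(CPM + 1), followed by Ncam1 and Chl1 with 0.897. Cadm3 stood apart, with r of -0.200 with Chl1 and -0.181 with Cdh20. These values are descriptions over profiles that share libraries.

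Over 13499 genes with at least 10 CPM in a profile, the genes most like each member differed by family. Among them were Luzp2 (0.971) for Ncam1 and Camk2d (0.976), a calcium-dependent kinase subunit, for Ncam2. For Cdh20 they were Cyp2j6 (0.9898) and Gpm6b (0.9878), a glial membrane glycoprotein. For Cntn1 they were Acat2 (0.962) and Fdps (0.961), both enzymes of sterol synthesis. L1cam was most like Phyhipl (0.943) and Jph4 (0.943), Chl1 like Cela1 (0.975) and Vmn1r181 (0.966), and Nrcam like the Wnt receptor gene Fzd3 (0.972) and the adhesion gene Sdk1 (0.967). Cadm1 had the least close matches, Ctnnbip1 (0.897) and Inpp5f (0.883). Cadm2 was most like Adam23 (0.9503), a receptor of LGI proteins, and Ppip5k2 (0.9477), and Cadm3 like the ephrin receptor gene Epha6 (0.941).

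Of 33 other genes of axon and glia adhesion, all were tested. Between the Schwann cell types 19 were called higher in non-myelinating and 4 in myelinating cells, against 17.2% and 17.5% of all genes. The median log2 fold change was 1.04 over these 33 and -0.02 over all genes. Those with the largest differences were Gldn and Nfasc, the nodal partners gliomedin and neurofascin, and Opcml, a lipid-anchored adhesion gene. Gldn was 454 and 429 CPM in myelinating against 6.81 and 7.94 CPM in non-myelinating Schwann cells (log2 fold change -5.89 ± 0.32), and Nfasc 359 and 380 against 10.4 and 14.2 CPM (-4.89 ± 0.18). Opcml was higher in non-myelinating cells, with 115 and 132 against 2.62 and 4.01 CPM (5.20 ± 0.37). Gldn and Nfasc thus had the same order of Schwann cells as Nrcam and Cadm3.

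Between non-myelinating Schwann cells and SGCs 16 of the 33 were higher and 7 lower, against 13.5% and 16.6% of all genes. The median was 0.80, and -0.04 over all genes. Ank3, which encodes the ankyrin-G that anchors L1 family proteins, was 1919 and 1932 CPM in the Schwann cells and 77.9 and 75.5 CPM in SGCs (4.65 ± 0.27), Cntn6 was 4.36 and 4.08 against 0.265 and 0.311 CPM (3.82 ± 0.48), and Ntm was 3.27 and 3.22 against 37.7 and 43.3 CPM (-3.64 ± 0.44). Cntn6 rests on 16 and 19 UMIs in the Schwann cells, and with equal numbers of cells it lost its call (log2 fold change -0.39 ± 1.80, adjusted p = 1.00). Between myelinating Schwann cells and SGCs 3 were higher and 18 lower, against 23.5% and 25.0% of all genes. The median was -0.56, and 0.01 over all genes. Largest were the differences of Gldn (8.55 ± 0.30), Nfasc (8.37 ± 0.19) and, in the other direction, Lsamp with 61.7 and 65.6 against 1421 and 1444 CPM (-4.49 ± 0.18).

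Against the glial mean 21 of the 33 were higher in neurons and 10 lower, against 35.3% and 31.9% of all genes. This comparison had a median log2 fold change of 0.95, and of -0.02 over all genes. Its largest difference was Cntnap2, the axonal neurexin family gene, with 1573 and 1263 CPM in neurons and at most 5.79 CPM in a glial profile (8.71 ± 0.21). Cntn3 and Cntn4 held 842 and 687 and 728 and 235 UMIs in neurons but at most 29 and 25 UMIs in a glial profile. Neurons and glia were higher than the other types in 26 of the 33 and lower in 1, against 29.9% and 29.4% of all genes. The median was 1.65, and 0.02 over all genes. Ank3 (3.49 ± 0.14) and Adam23 (2.92 ± 0.13) were among the largest, and Cntn6 was at 0 in endothelial and mural cells, so no fold is given for it.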

How the data were processed

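Single cell 3′ transcript libraries of 2 DRG samples were counted by the authors with Cell Ranger 7.1.0 against mm10. The deposited values are raw UMI counts per gene and barcode for all droplets, and the setting for intronic reads is not given in the sources used here. Cells were called from UMI totals and by difference from empty droplets (false discovery rate 0.01), kept above 300 genes, normalized with SCTransform and clustered in Seurat 5.3.0 (30 principal components, resolution 0.8) with the members and 33 other adhesion genes kept out of the variable genes. Clusters were named by at least 3 raised markers, by a rule set after seeing the data, and dropped under a mean of 1000 genes, above 50% Scrublet doublets or for mitochondrial RNA. Cells above 21.74% mitochondrial UMIs, or above 45776.2 UMIs unless neurons, were removed. UMIs were summed per sample and type, and 16 profiles were fitted together with edgeR 4.0.16 (quasi-likelihood, TMM, threshold 0.05, Benjamini-Hochberg), checked on simulated data, with DESeq2 1.42.0 as an alternative. With 2 samples per type, p-values measure only the spread between these samples. All types share 1 estimate of this spread per gene, so an SE does not show that 1 type varied more than the others. Summed counts of replicates 1 and 2 were not those of a library deposited again (chi-square of 13.6 per degree of freedom over 21059 genes). Types of a sample share its dissociation and so are paired, although deviations of types from their means correlated little (median r = 0.0372 over 28 pairs of types). The named genes are all 10 members, up to 3 called genes with the largest change per comparison among the 33 others, and the 2 genes most like each member, some of which are not reported here. Members, lists and markers were chosen with earlier results of these data known.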

Additional observations from a re-analysis of the deposited data

Results flagged for a closer look

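Cdh20 was higher in a group of cells that entered no comparison than in any named type. The 638 cells of the unnamed cluster, led by Pou3f1, a transcription factor of promyelinating Schwann cells, Pde10a and Lrrtm4, held a mean of 365 CPM of Cdh20 on total UMIs, 399 CPM in replicate 1 and 331 CPM in replicate 2. On the same scale SGCs, the highest named type, held 209 and 203 CPM, a difference of 1.77-fold that was not tested. The largest SGC cluster, also the SGC cluster with the most Cdh20, was closer, with 278 and 274 CPM. This cluster did not meet the naming rule of any type, although single markers such as Kcnj10 were present. Its cells came from both samples (343 and 295), and 1.72% were called doublets.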

How the results depend on the processing

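Of 46 called differences of the members, 40 were called in the same direction under each of the alternatives run, and no called value changed direction. Of 730 tested values under the alternatives, 714 kept their direction and their side of the threshold, 7 lost a call, 6 gained one and 3 turned direction. The 3 that turned were not called: Cadm2 between neurons and glia, at 0.18 with equal numbers of cells and 0.057 without shared barcodes, an alternative chosen after seeing the data, and Cntn1 between the Schwann cell types, at -0.20 with equal numbers of cells. Drawing 55 and 53 cells per type lowered the calls between non-myelinating Schwann cells and SGCs from 9 to 5 (from 5 to 3 higher and from 4 to 2 lower), where fewer UMIs enter by construction. The replicate block changed the call of Cdh20 there (log2 fold change -0.44, adjusted p = 0.0458) and no other member's call. Each of the 10 members kept its highest type after subtraction of empty droplet RNA and without called doublets, and 9 kept it without shared barcodes, the exception being Cntn1, then highest in neurons. The type with the highest share of cells was that with the highest level for 8 members after thinning and for 5 without it. Leaving out a sample left 1 profile per type and so gave values with no test. With the UMI cutoff also applied to neurons, fewer than 20 were left in a sample, and the 2 comparisons with neurons could not be run. The number of cells limits the values of neurons, which rest on 55 and 53 cells. Low counts limit the values of Cadm3 in SGCs, with 123 and 133 UMIs.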

Other observations

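The unnamed cluster led by Pou3f1 held most of the 10 genes. Ncam1 was 1265 and 1159 CPM, Ncam2 1298 and 1379 CPM, Cadm1 970 and 977 CPM and Chl1 546 and 525 CPM on total UMIs. L1cam was 19.7 CPM in each sample and Cadm3 2.33 and 4.59 CPM, from 9 and 17 UMIs. The SGC marker Fabp7 was 1218 and 1355 CPM and the non-myelinating marker Scn7a 5.71 and 6.75 CPM there. The SGC marker Kcnj10 was 191 and 188 CPM, against 228 and 222 CPM in SGCs. At the clustering resolution of 0.4 a cluster of 4239 cells led by Pou3f1 was named SGC by its markers. These values are given without an explanation.

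The 2 clusters of shallow cells that carried neuronal transcripts (244 and 184 cells, led by Fxyd2 and Calca) were left out of all comparisons. They held L1cam at 165 and 303 CPM and at 227 and 163 CPM, from 26 to 40 UMIs in a sample, and Cdh20 at no more than 30.5 CPM, from at most 6 UMIs.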
